A study of Mus musculus with 4 samples.

Results

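The genes described here are 37 type I interferon-stimulated genes, given by symbol and read from the unnormalised counts of 4 mouse kidneys. All 37 were found among the 57132 genes of the deposited matrices. By role, 20 encode antiviral effectors, 3 are sensors of viral RNA, 4 are transcription regulators, 4 act on ubiquitin-like or ADP-ribose tags, and 6 have other or less settled roles. Each kidney came from a wild-type mouse in which contrast-induced acute kidney injury had been provoked, the loss of kidney function that can follow an iodinated contrast agent. The 4 mice are labelled as biological replicates of a single condition in batch 1. The agent, its dose, the time of collection and the ages of the animals are not given in the sources used here. No uninjured kidney was analysed here. The values are levels inside injured kidneys, compared between cell classes and mice, and what contrast changed cannot be read from them.

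Type I interferons, the interferon alpha and beta family, bind a receptor made of the subunits Ifnar1 and Ifnar2. Signals from the kinases Jak1 and Tyk2 then reach Stat2, which acts with Irf9 in a complex called ISGF3. ISGF3 binds the interferon-stimulated response element, or ISRE, in the promoters of these genes, and their products block steps of viral replication or tune the response itself. Type II interferon (interferon gamma) and the factor Irf3 can also induce several of them. In the kidney the programme is best known from lupus nephritis and viral infection.

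The matrices hold 48213 barcodes and 273788487 unique molecular identifiers (UMIs, 1 per captured transcript), and 40805 cells were kept. Median UMIs per cell were 5549, 5774.5, 5654.5 and 2077 in mice 1 to 4. Mouse 4 therefore had the shallowest cells, and its cells carried a median of 13.7% ribosomal-protein UMIs against 1.48% to 2.35% in the other mice. Cells were clustered without the members, their pathway and related families, and a cluster took a class name from marker genes alone. The class names used here are short for "neutrophil-like", "endothelial-like" and so on. Counts of cells differed widely between mice: macrophages numbered 585, 1112, 7 and 2227, monocytes 108, 184, 1423 and 39, and neutrophils 2357, 3762, 981 and 201. A level is given for a class only in mice with at least 20 cells of it, which leaves 13 classes with 3 mice or more. Several classes were made of different clusters in different mice. Endothelial cells came mainly from clusters 6 and 27 in mice 1 and 2, clusters 1 and 24 in mouse 3 and cluster 4 in mouse 4. Neutrophils were mostly in clusters 0 and 5 in mice 1 and 2 and in cluster 18 in mouse 3, and mouse 3 monocytes were in cluster 10. Proximal tubule cells of mouse 3 were mainly in cluster 25 and those of mouse 4 in cluster 14. T lymphocytes of mouse 4 were in clusters 3 and 12, and macrophages of mouse 4 in cluster 2. Fibroblasts and mural cells were mainly in cluster 9 in mice 1 to 3, with Ednra, Rgs5 and Notch3 among its leading genes. In mouse 4 they were mainly in cluster 31, with C7, Dcn and Pdgfra among its leading genes. The thick ascending limb came from clusters 11 and 15 in all 4 mice. Mice 1 to 3 shared 23 to 54 cell barcodes in pairs, and mouse 4 shared 0, 1 and 0 with mice 1, 2 and 3.

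Promoters in the RefSeq table for GRCm38.p6 could be matched for 29 of the 37 members. The ISRE core searched for, GAAA, any 2 bases and GAAA again on either strand, was present in the 300-base window (250 bases before the start and 50 after) of 14 of these 29 members (48.3%). Of all 27025 genes in the table, 3.99% had it. The members with it, in this window of 300 bases, were Bst2, Ddx60, Eif2ak2, Ifih1, Ifit1, Ifit3, Ifit3b, Ifitm3, Isg15, Oas1a, Oas3, Rsad2, Stat2 and Trim30a. A match is a description of the letters and not evidence of binding. The 250 bases upstream of 4 members are shown, because they span the range from clustered matches to none and because the levels of these genes are described next. Capitals mark the ISRE core matches. Isg15 encodes the ubiquitin-like tag that is conjugated to proteins during the response (chr4:156200819-156201068, minus strand, with overlapping matches). Ifit1 binds viral RNA that lacks the host's cap methylation (chr19:34640639-34640888, plus strand). Bst2, or tetherin, holds budding virions at the cell surface (chr8:71537473-71537722, minus strand). Ifit2, a relative of Ifit1, is shown at the first of its annotated starts and has no match (chr19:34550444-34550693, plus strand).
Isg15: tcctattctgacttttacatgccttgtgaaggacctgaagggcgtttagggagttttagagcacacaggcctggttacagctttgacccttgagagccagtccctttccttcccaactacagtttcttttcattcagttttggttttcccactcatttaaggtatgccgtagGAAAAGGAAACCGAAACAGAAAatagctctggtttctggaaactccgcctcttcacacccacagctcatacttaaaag
Ifit1: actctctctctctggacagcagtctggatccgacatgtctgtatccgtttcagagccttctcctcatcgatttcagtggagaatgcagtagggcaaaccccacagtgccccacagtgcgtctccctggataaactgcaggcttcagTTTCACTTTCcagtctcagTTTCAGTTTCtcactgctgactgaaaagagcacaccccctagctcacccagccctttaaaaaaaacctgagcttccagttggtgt
Bst2: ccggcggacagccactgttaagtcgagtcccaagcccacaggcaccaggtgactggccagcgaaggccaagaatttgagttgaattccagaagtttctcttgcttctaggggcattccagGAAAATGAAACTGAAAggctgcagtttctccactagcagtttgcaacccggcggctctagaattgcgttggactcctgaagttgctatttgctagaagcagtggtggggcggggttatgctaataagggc
Ifit2: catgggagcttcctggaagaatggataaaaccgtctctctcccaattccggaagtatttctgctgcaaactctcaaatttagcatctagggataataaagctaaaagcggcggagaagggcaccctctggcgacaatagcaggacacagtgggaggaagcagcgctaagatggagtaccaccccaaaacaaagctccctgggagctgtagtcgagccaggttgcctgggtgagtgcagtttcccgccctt
The match nearest the start began 66 bases before it in Isg15, 85 in Ifit1 and 124 in Bst2. Members without a match in the window include the regulators Irf7 and Irf9, and Oasl1 and Cmpk2.

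The summed level of the 37 members gives the programme as a whole. It is given in CPM, the UMIs of the members per 1000000 UMIs of the class. In neutrophils it was 4499.7, 5349, 20055 and 2245 CPM in mice 1 to 4, in endothelial cells 4020.0, 4175, 17391 and 7387 CPM and in monocytes 4205, 5252, 16044 and 4805 CPM. In part of the tubule it was far lower outside mouse 3. The proximal tubule, which reabsorbs most of the filtrate, had 582, 461, 7377 and 368 CPM. The thick ascending limb had 549.7, 566, 9328 and 369 CPM and the distal convoluted tubule 405, 458, 6259 and 406 CPM. Mouse 3 was the highest mouse in every class measured in 4 mice. Its ratio to the next highest mouse was larger in the 7 epithelial classes than in the other 5. Its sum over the next highest mouse was 16.5-fold in the thick ascending limb, 13.7-fold in the distal convoluted tubule and 12.7-fold in the proximal tubule, against 2.35-fold in endothelium and 2.75-fold in T lymphocytes. These ratios set 1 mouse against another and have no test. The split between the 7 classes and the other 5 depended on 1 member, Ifitm3. Without it the sums of mice 1 to 4 were 1366, 1372, 8395 and 1119 CPM in fibroblasts and mural cells. In the collecting duct and connecting tubule they were 2449, 2272, 13793 and 983 CPM, and the ratio there was then the smaller of the 2.

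Mouse 3 was also the highest in the glomerulus and the rest of the nephron. Podocytes, the filtering cells of the glomerulus, had 1094, 1033, 13832 and 1254 CPM, and the parietal epithelium that lines its capsule had 1487, 1734, 14070.3 and 1158 CPM. The parietal class is cluster 26, which passed 5 parietal markers and also 3 markers of injured proximal tubule, so its name is less certain. Collecting duct and connecting tubule cells had 2702, 2462, 15706 and 1388 CPM and the acid- or base-secreting intercalated cells 1774, 1970.1, 12493 and 979 CPM. Fibroblasts and mural cells had 1850.0, 2156, 14028 and 4656 CPM, with mouse 4 second to mouse 3. The mouse 4 value is mostly that of cluster 31 and the values of mice 1 to 3 mostly those of cluster 9. T lymphocytes had 3854, 3818, 10613 and 1793 CPM. Macrophages, measured in mice 1, 2 and 4, had 3039.8, 3512 and 3528 CPM (3360.2 ± 278 CPM, SD, n = 3). Classes that only mouse 3 supplied in number were high as well, with 15212 CPM in dendritic cells and 11482 CPM in NK cells.

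With all 4 mice the mean was 8243 ± 6293 CPM (SD, n = 4) in endothelium, 8037 ± 8118 CPM in neutrophils and 2197 ± 3455 CPM in the proximal tubule. Without mouse 3 the 3 means were 5194, 4031 and 470.0 CPM. With mouse 3 the SD was above the mean in 9 of the 12 classes measured in 4 mice. It was below the mean in endothelium, monocytes and T lymphocytes. This SD is a spread between mice and does not measure how far classes differ within a mouse, so the order of the means has no test here. The order of classes was stable in mice 1 and 2: neutrophils, monocytes, endothelium, T lymphocytes and macrophages led, and the proximal tubule, thick ascending limb and distal convoluted tubule came last. Mouse 4 was led by endothelium, monocytes and fibroblasts and mural cells. In mouse 4 a single gene, Ifitm3, made up 66.6% of the endothelial sum, 84.7% of the monocyte sum and 76.0% of the fibroblast and mural sum, against 23.1%, 25.7% and 26.2% in mouse 1.

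**Figure D1:**
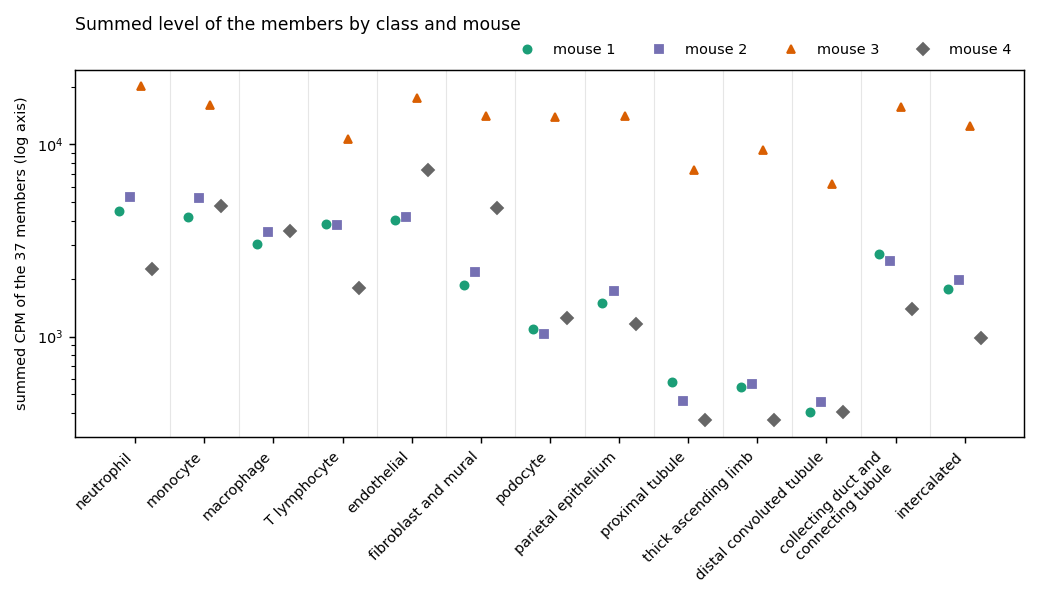
Summed level of the 37 members in each cell class on a log axis in CPM, with 1 point per mouse that had at least 20 cells of the class. The mouse 3 points lie above the other mice in every class measured in 4 mice, from 20055 CPM in neutrophils to 6259 CPM in the distal convoluted tubule.

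Gene by gene, each mouse was compared with the highest of the other 3 in the 12 classes measured in all of them, for genes with a mean of at least 5 CPM over the 4 mice. That minimum includes mouse 3, so a member seen only there could be compared only because it was high; the shares of all genes given here are under the same minimum. In the thick ascending limb 35 of 36 members compared stood 2-fold or more above every other mouse in mouse 3, where 4.70% of all genes did so. The same held for 33 of 35 in the proximal tubule (5.24% of all genes), 31 of 34 in the distal convoluted tubule (4.96%), 33 of 36 in parietal epithelium (4.63%), 29 of 36 in podocytes (4.30%), 31 of 36 in the collecting duct and connecting tubule (5.14%) and 31 of 36 in intercalated cells (6.61%). Outside the epithelium it held for 26 of 36 in endothelium (5.06%), 26 of 37 in fibroblasts and mural cells (4.22%), 31 of 37 in T lymphocytes (3.67%), 29 of 37 in neutrophils (16.9%) and 24 of 37 in monocytes (9.59%). Mouse 1 stood above the others only for Epsti1 in endothelium (0.0948% to 3.64% of all genes did so over the 12 classes), mouse 2 only for Epsti1 in the distal convoluted tubule (0.0471% to 2.42%) and mouse 4 for no member (5.70% to 12.9%). Mouse 3 met the mark in all 12 classes for 19 members, among them Isg15, the 4 Ifit genes of the set, Rsad2, Mx1, Irf7 and Stat2. Some members were below the minimum in some classes: Oas3 met the mark in 1 of the 5 classes in which it could be compared, Oas2 in 2 of 11 and Oas1a in 6 of 9. Compared in all 12, Samd9l met it in 2, Irf9 in 5, and Ddx60 and Epsti1 in 6.

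Counted per cell, most cells of a class in mouse 3 held several members. Cells were thinned to 1000 UMIs each so that depth was equal, which 37398 of the 40805 cells were deep enough for, and a cell was counted when it held UMIs of 3 or more members. In the thick ascending limb 3.13, 2.25, 92.3 and 0.879% of cells did so in mice 1 to 4, and in the proximal tubule 4.83, 0.645, 81.3 and 1.28%. The former class draws on the same clusters in every mouse. In endothelium the shares were 48.7, 57.7, 98.7 and 54.1%, in neutrophils 60.5, 69.0, 99.3 and 16.9% and in T lymphocytes 42.5, 42.3, 91.9 and 15.9%. Mouse 3 was the highest in each of these, with exact 95% binomial intervals of 89.9 to 94.3% in the thick ascending limb and 78.2 to 84.2% in the proximal tubule, which cover counting error only. Too shallow to be thinned were 119, 58, 67 and 77 cells of the thick ascending limb and 67, 28, 104 and 284 of the proximal tubule in mice 1 to 4. Without thinning the thick ascending limb shares were 33.7, 39.1, 98.2 and 7.89% and the proximal tubule shares 28.9, 25.7, 94.8 and 7.68%. Endothelial marker genes in the proximal tubule stood at 3.82% of their endothelial level in mouse 3 and at 1.08% to 1.36% in the other mice. The member sum of the same cells was 42.4% of the endothelial sum in mouse 3 and 14.5%, 11.0% and 4.98% in mice 1, 2 and 4. In the thick ascending limb of mouse 3 the corresponding shares were 3.47% and 53.6%. Mouse 3 was not the highest for markers of other classes in the proximal tubule. Neutrophil markers stood there at 4.76, 3.00, 1.93 and 0.0494% of their own level in mice 1 to 4. T lymphocyte markers stood at 0.548, 1.04, 0.373 and 4.15%, and thick ascending limb markers at 1.60, 0.650, 1.33 and 1.53%. The part that RNA from other cells plays in the tubular values was not tested.

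**Figure D2:**
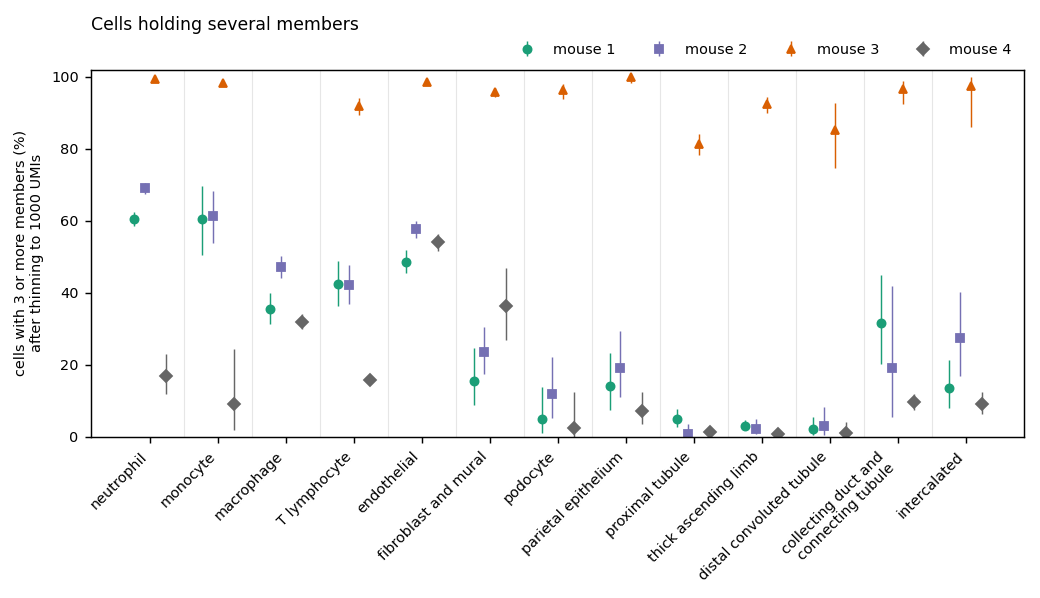
Percent of cells with UMIs of 3 or more of the 37 members after thinning each cell to 1000 UMIs, by class and mouse, with exact binomial intervals that cover counting error only. Mouse 3 lies above 80% in every class drawn, while the proximal tubule, thick ascending limb and distal convoluted tubule of the other mice lie below 5%.

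Antiviral effectors come first, each with its levels in mice 1 to 4. Isg15 was 507, 571, 2217 and 146 CPM in neutrophils, the highest of the 13 classes in mice 1 to 3, and stood at 11.9, 13.5, 489.6 and 36.7 CPM in the distal convoluted tubule. Rsad2, or viperin, which makes a chain-terminating nucleotide, was 333, 268, 2603 and 169 CPM in endothelium. It was 218, 155, 2066 and 106 CPM in intercalated cells and 6.56, 18.1, 1575 and 0 CPM in podocytes. Mouse 3 alone had a high level in podocytes. Cmpk2, which lies beside Rsad2 in the genome and supplies its nucleotide substrate, was 53.7, 39.2, 214 and 8.64 CPM in endothelium and 18.2, 19.3, 364 and 7.84 CPM in neutrophils.

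The Ifit genes bind viral RNA or block its translation. Ifit2 in the proximal tubule was 4.30, 13.3, 1899.5 and 4.39 CPM in mice 1 to 4, in podocytes 52.5, 54.3, 2622 and 24.2 CPM and in parietal epithelium 86.9, 128, 1653 and 14.0 CPM. In endothelium it was 65.4, 72.5, 735 and 40.1 CPM. In mouse 3 these 3 epithelial classes and the collecting duct and connecting tubule (1064 CPM) were above endothelium, whereas the thick ascending limb (693 CPM), distal convoluted tubule (414 CPM) and intercalated cells (254 CPM) were below it, and in mice 1, 2 and 4 the proximal tubule was far below endothelium. Neutrophils of mouse 4 held 0 Ifit2 UMIs, and the other mice had 7.54, 10.6 and 949 CPM. Ifit1 was 26.3, 7.24, 752 and 29.0 CPM in podocytes and 99.7, 51.2, 607 and 25.3 CPM in the collecting duct. Ifit3 and its near copy Ifit3b share 35.1% and 30.5% of their 90-base transcript words with other genes, so their separate values are uncertain. Ifit3 was 191, 94.8, 1256 and 50.1 CPM in the collecting duct and 119, 138, 981 and 112 CPM in parietal epithelium.

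The Mx proteins are dynamin-like GTPases that trap viral nucleocapsids. Mx1 was low in the epithelium of mice 1, 2 and 4. The thick ascending limb had 0.605, 0.385, 577 and 0.673 CPM and the collecting duct 5.16, 0, 783 and 0.513 CPM in mice 1 to 4. In T lymphocytes Mx1 was 60.2, 56.3, 271 and 7.84 CPM and in monocytes 9.66, 28.5, 438 and 0 CPM. Mx2 was 14.6, 7.68, 187 and 5.13 CPM in the collecting duct.

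A count of 0 allows up to 3 UMIs, which is 14.5 CPM in podocytes of mouse 4, 7.84 CPM in its neutrophils, 18.8 CPM in its monocytes and 7.68 CPM in the collecting duct of mouse 2.

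Bst2 was nearly absent from neutrophils of mice 1, 2 and 4, at 10.3, 10.4, 391 and 0 CPM, against 177, 184, 674 and 531 CPM in endothelium and 134, 149, 1148 and 143 CPM in the collecting duct. Ifitm3 blocks the fusion of virions in endosomes. It was 930.3, 1145, 4193 and 4916 CPM in endothelium, 484, 784, 5633 and 3538 CPM in fibroblasts and mural cells and 1079.7, 1789.8, 3452 and 4071 CPM in monocytes. Mouse 4 passed mouse 3 for Ifitm3 in endothelium and in monocytes. T lymphocytes had only 68.5, 56.9, 395 and 109 CPM of it.

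The oligoadenylate synthases make the second messenger that activates RNase L. Outside mouse 3 the highest mean levels of Oas2 and Oas3 were in neutrophils, monocytes and macrophages. Oas3 was under the minimum of 5 CPM for the comparison between mice in 7 of the 12 classes. In neutrophils Oas2 was 116, 143, 167 and 18.3 CPM and Oas3 92.2, 111, 173 and 28.7 CPM, whereas in endothelium Oas3 was 11.5, 4.23, 1.90 and 0.720 CPM. Oas1a shares 43.4% of its 90-base words, mainly with Oas1g, and its values are uncertain. Oasl1, which lacks synthase activity and restrains translation of Irf7, was 80.5, 87.0, 532 and 18.3 CPM in neutrophils and 75.7, 69.6, 366 and 18.8 CPM in monocytes.

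**Figure D3:**
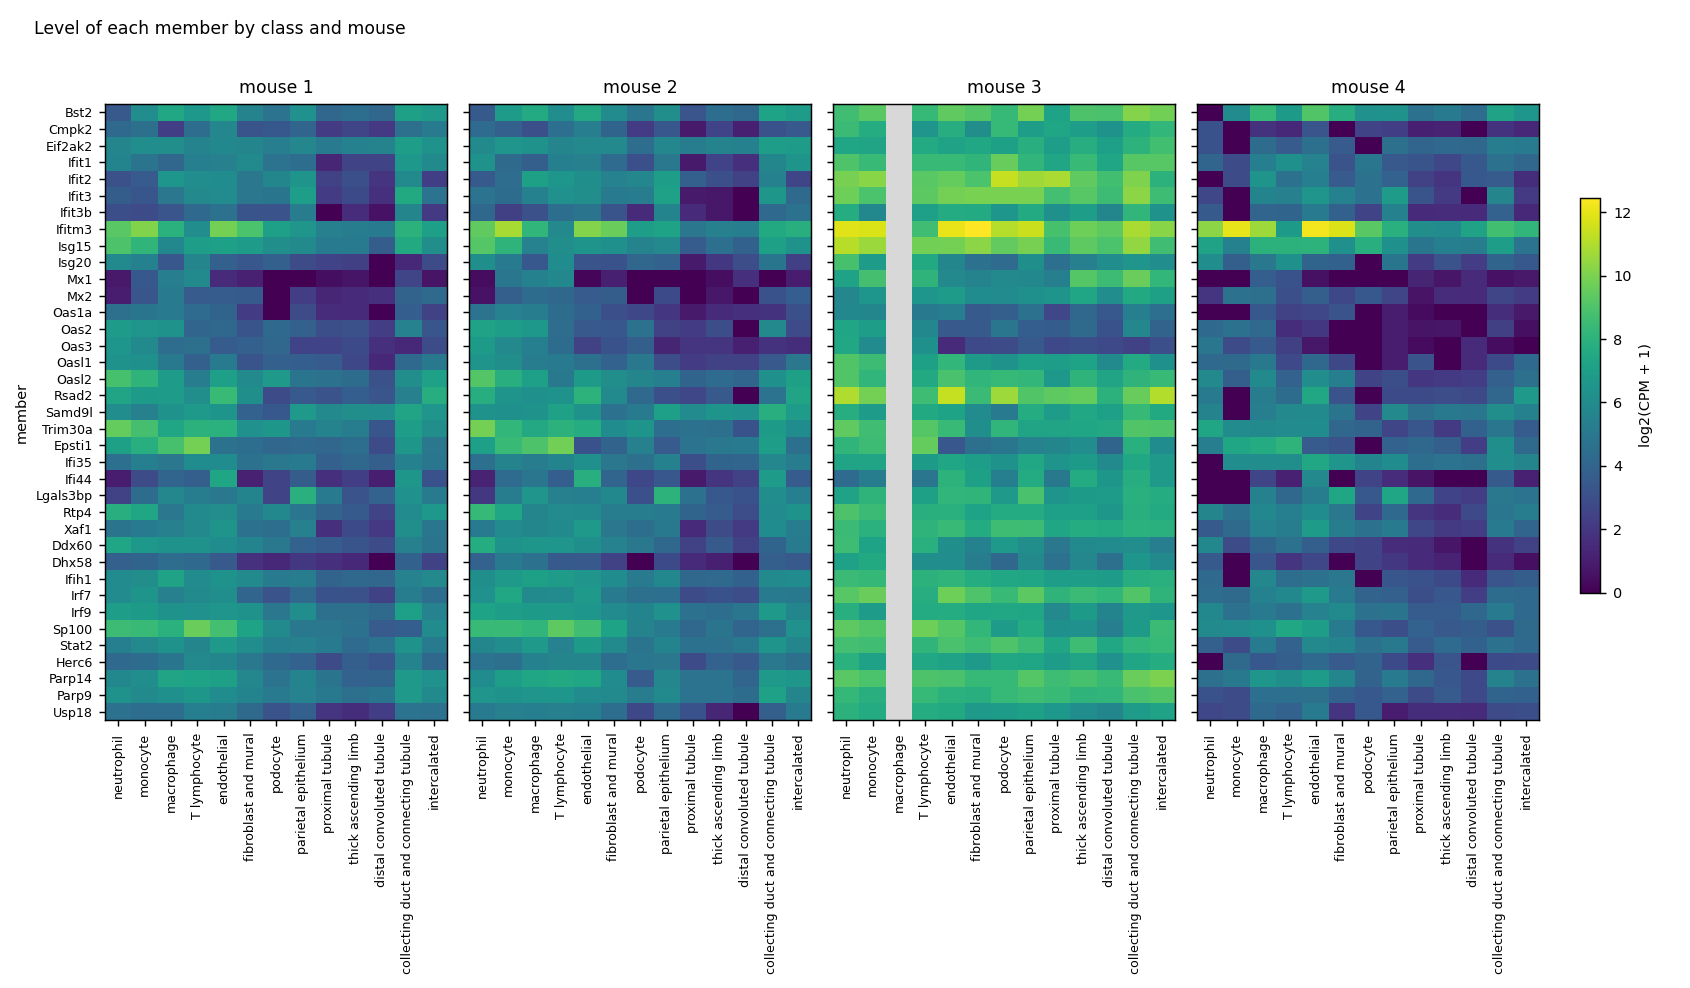
Level of each of the 37 members, grouped by role from top to bottom, in each class, with 1 panel per mouse, as log2 of CPM + 1; grey marks macrophages of mouse 3, which had 7 cells. The mouse 3 panel is the brightest for most members, while Epsti1 keeps its high value in T lymphocytes and its low value in endothelium.

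Among the sensors, Ifih1 (MDA5) recognises long double-stranded RNA, Dhx58 (LGP2) assists it, and Ddx60 is an RNA helicase of the same pathway. Ifih1 was 144, 133 and 53.0 CPM in macrophages of mice 1, 2 and 4, and 83.8, 89.5, 281 and 24.7 CPM in endothelium of mice 1 to 4. Ddx60 was 167, 208, 378 and 54.9 CPM in neutrophils and 11.3, 4.42, 29.4 and 1.76 CPM in the proximal tubule. Dhx58 reached 188 CPM in mouse 3 monocytes.

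Irf7, the factor that amplifies interferon production, was 73.9, 104, 845 and 104 CPM in endothelium and 7.82, 6.19, 274 and 7.03 CPM in the proximal tubule. Stat2 and Irf9 are parts of ISGF3. Stat2 was 106, 108, 468 and 56.6 CPM in endothelium, and Irf9 90.6, 91.0, 212 and 44.9 CPM. Irf9 in neutrophils was 125, 148, 226 and 54.9 CPM, so mouse 3 stood less apart there than for Irf7. Sp100, a component of PML nuclear bodies, was 793, 665, 827 and 179 CPM in T lymphocytes, with 423, 398, 585 and 119.7 CPM in endothelium and 10.9, 15.8, 38.6 and 11.6 CPM in the distal convoluted tubule.

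Of the genes that act on ISG15 or ADP-ribose tags, Usp18 removes ISG15 and blocks the receptor's signal. Usp18 was 36.4, 40.3, 188 and 35.5 CPM in endothelium and 2.12, 1.54, 67.4 and 2.02 CPM in the thick ascending limb. Parp14, an ADP-ribosyltransferase, was 77.9, 96.5, 1023 and 25.4 CPM in intercalated cells and 149, 191, 503 and 73.2 CPM in T lymphocytes. Herc6, the ligase for ISG15 in mice, and Rtp4, a chaperone of receptors, share 10.6% and 9.75% of their 90-base words with other annotated transcripts.

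Among the remaining members, Epsti1 was high in T lymphocytes and macrophages and low in endothelium. It was 931, 884, 733 and 271 CPM in T lymphocytes and 460.4, 506 and 200.3 CPM in macrophages of mice 1, 2 and 4, but 23.7, 7.72, 9.27 and 11.0 CPM in endothelium. Lgals3bp, a secreted glycoprotein that binds galectins, was highest in parietal epithelium among the 13 classes at 241, 263, 473 and 165 CPM and nearly absent from neutrophils of 3 mice at 4.34, 3.10, 143 and 0 CPM. Ifi44 was 159, 230.4, 264 and 58.1 CPM in endothelium and 0.943, 1.28, 19.4 and 0 CPM in neutrophils.

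**Figure D4:**
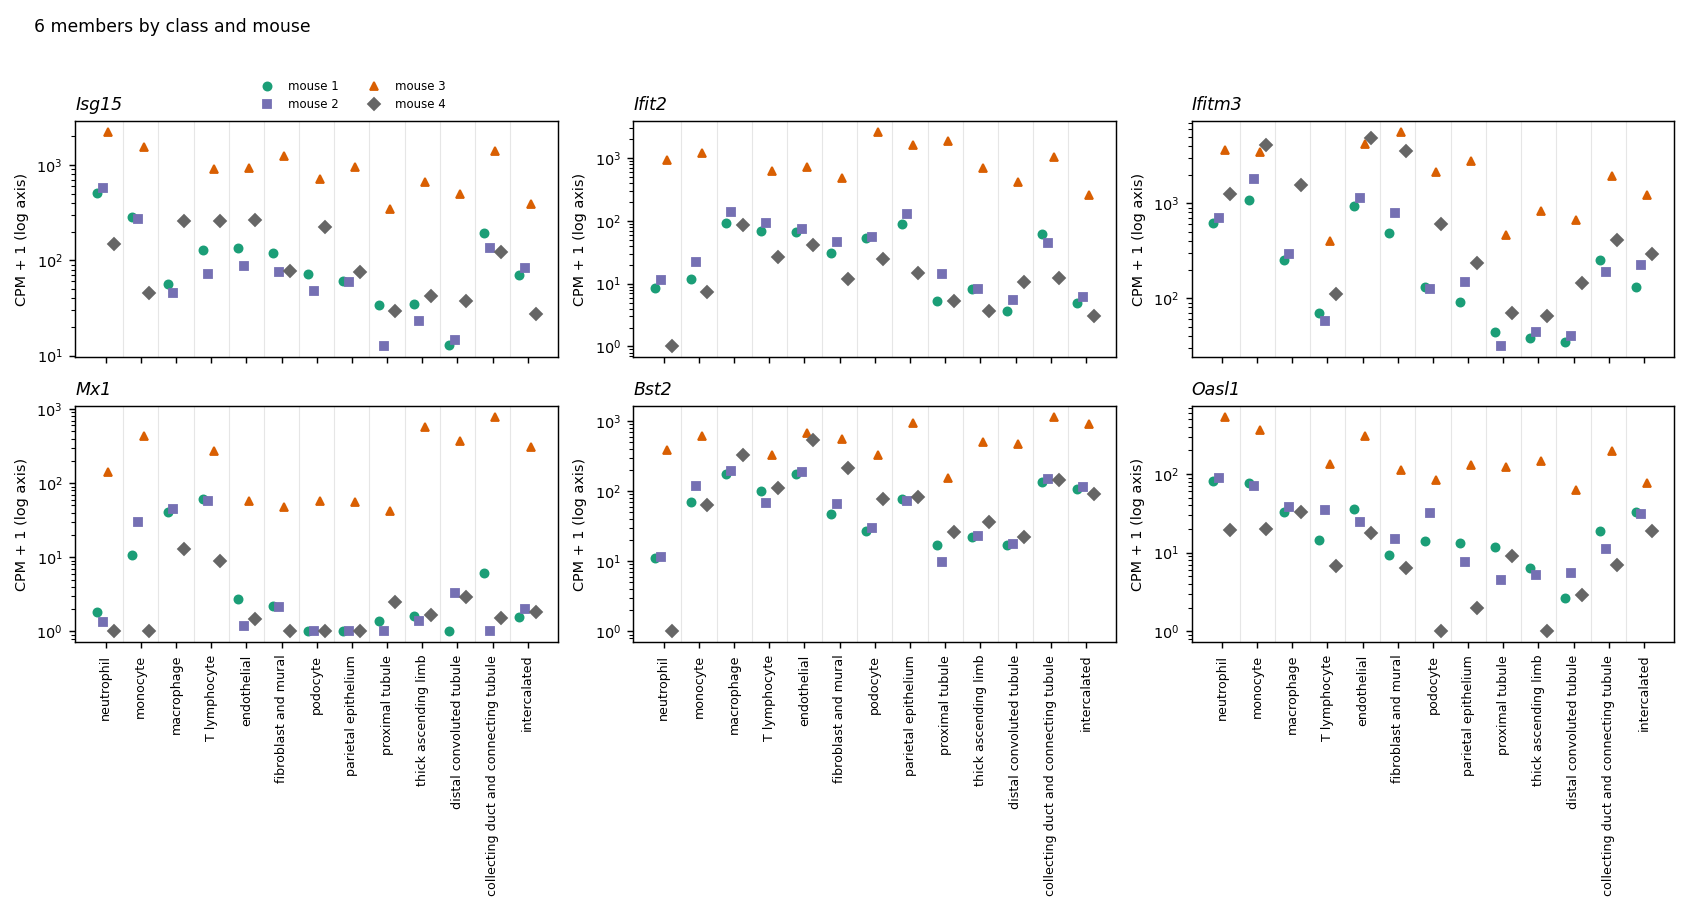
Levels of Isg15, Ifit2, Ifitm3, Mx1, Bst2 and Oasl1 by class, as CPM + 1 on a log axis with 1 point per mouse. Ifit2 and Mx1 separate mouse 3 from the other mice in the epithelium, whereas Ifitm3 of mouse 4 lies at the level of mouse 3 in monocytes and endothelium.

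The classes were compared within mice with edgeR on summed counts, with the mouse as a block, adjusted over all genes tested. Values are log2 fold changes ± SE. Endothelium against the proximal tubule gave the most members called among the pairs of classes compared: of 36 members tested, 30 were higher in endothelium and 0 lower, against 26.6% and 24.8% of all genes tested. The members' median log2 fold change was 2.27, and that of all genes 0.05. Ifi44 (log2 fold change 5.06 ± 0.65 (SE), adjusted p = 0.00047), Ifitm3 (4.75 ± 0.51, adjusted p = 0.00018) and Rsad2 (4.31 ± 0.63, adjusted p = 0.00088) led, each higher in 4 of 4 mice. Ifi44 had 2.34, 0.884, 31.9 and 0.586 CPM in the proximal tubule of mice 1 to 4, so the endothelial level passed it in each. The members that did not pass were Ifit2 (2.01 ± 0.86), Parp9, Lgals3bp, Oas2, Oas3 and Epsti1 (-1.11 ± 0.46). Ifit2 was higher in endothelium in 3 of 4 mice, and in mouse 3 the proximal tubule was the higher of the pair. Without the mouse as a block 6 were higher. Leaving out 1 mouse at a time gave 26 to 33, and without mouse 1 a single member was lower.

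Endothelium was also compared with its neighbours in the vessel wall and interstitium. Against fibroblasts and mural cells 23 of 36 members were higher and 0 lower (14.8% and 13.8% of all genes), with a median log2 fold change of 0.91. Cluster 9 made up 85 of 101, 157 of 192 and 1215 of 1306 cells of the second arm in mice 1 to 3. In mouse 4 cluster 31 made up 88 of 101, so that arm is largely a different cell type there. Ifi44 (3.27 ± 0.75, adjusted p = 0.015), Rsad2 (2.75 ± 0.34, adjusted p = 0.00086) and Trim30a (1.99 ± 0.20, adjusted p = 0.00028), a TRIM protein that restrains innate signalling, were higher in 4 of 4 mice. Isg15 (0.48 ± 0.36), Ifit1 and Ifitm3 (0.51 ± 0.26) did not pass. Without the block 1 member was higher, and 14 were without mouse 2, the fewest with 1 mouse left out.

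Within the nephron the thick ascending limb was compared with the proximal tubule. Of 30 members tested, 8 were higher in the thick ascending limb and 0 lower (19.0% and 18.9% of all genes). Bst2 (1.17 ± 0.26, adjusted p = 0.005) and Herc6 (1.04 ± 0.26, adjusted p = 0.0092) were higher in 4 of 4 mice. Ifit2 did not pass (-0.56 ± 0.37) and was lower in the thick ascending limb in 3 of 4 mice. The count was 0 without the block, 3 without mouse 2, 3 to 6 over all mice left out in turn, and 2 with library totals in place of TMM scaling.

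Among leukocytes members were called in both directions, and so were genes at large. In macrophages and monocytes against neutrophils 5 of 37 members were higher and 12 lower (23.2% and 20.3% of all genes). In mouse 3, 1423 of the 1430 cells of the pooled arm were monocytes, and in mouse 4, 2227 of 2266 were macrophages, so the arm is largely a different cell type in these 2 mice. Higher were Mx1 (3.62 ± 0.84, adjusted p = 0.011), Bst2, Mx2, Lgals3bp and Ifi44. Lower were Isg20 (-2.36 ± 0.35, adjusted p = 0.003), an exonuclease of single-stranded RNA, Trim30a, Oas3 (-2.04 ± 0.26, adjusted p = 0.0024), Ddx60 and 8 others. Isg15 did not pass (-1.72 ± 0.69, adjusted p = 0.074). The member counts depended on scaling: they were 7 higher and 6 lower with library totals. The median of all genes moved with the scaling, from 0.06 to 0.76. That of the members moved from -0.54 to 0.17, so the members stayed below all genes. Without the block 0 were higher and 2 lower. Without mouse 1 the counts were 2 higher and 7 lower, without mouse 2 4 higher and 6 lower, without mouse 3 7 higher and 16 lower and without mouse 4 1 higher and 18 lower.

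Monocytes were compared with macrophages in mice 1, 2 and 4. Of 37 members 6 were higher in monocytes and 4 lower (10.9% and 12.1% of all genes). Ifitm3 was higher (2.14 ± 0.44, adjusted p = 0.0017) in 3 of 3 mice. Ifit2 was lower (-2.71 ± 0.32, adjusted p = 9e-06), at 10.7, 20.8 and 6.27 CPM in monocytes of mice 1, 2 and 4 against 91.3, 137 and 85.3 CPM in macrophages. Cmpk2, Isg20, Rtp4, Oas3 and Oasl1 passed with a higher level in 2 of 3 mice. Monocytes of mouse 4 numbered 39, and without mouse 4 the counts were 11 higher and 6 lower. They were 0 higher and 3 lower without mouse 1 and 0 higher and 4 lower without mouse 2. Without the block 0 members were higher and 1 lower. The counts were 9 higher and 11 lower with library totals.

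T lymphocytes against macrophages and monocytes had 2 members higher and 15 lower of 37 (14.9% and 19.7% of all genes). The pooled arm is again nearly all monocytes in mouse 3 and nearly all macrophages in mouse 4, and Ifitm3, higher in monocytes, and Ifit2, lower in them, differed between these 2 types in mice 1, 2 and 4. Ifitm3 (-3.70 ± 0.23, adjusted p = 0.00015), Oas2 (-2.48 ± 0.32, adjusted p = 0.0017) and Oasl2 (-2.08 ± 0.31, adjusted p = 0.0031) were lower in 4 of 4 mice. Isg20 (0.98 ± 0.27, adjusted p = 0.032) and Sp100 (0.81 ± 0.20, adjusted p = 0.023) were higher in 4 of 4. Epsti1 (0.62 ± 0.20, adjusted p = 0.057) and Mx1 (-0.24 ± 0.36) did not pass. Without the block 0 were higher and 1 lower. The counts were 0 higher and 9 lower without mouse 1, 0 higher and 12 lower without mouse 2, 4 higher and 18 lower without mouse 3 and 2 higher and 8 lower without mouse 4. With library totals 6 were higher and 9 lower.

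**Figure D5:**
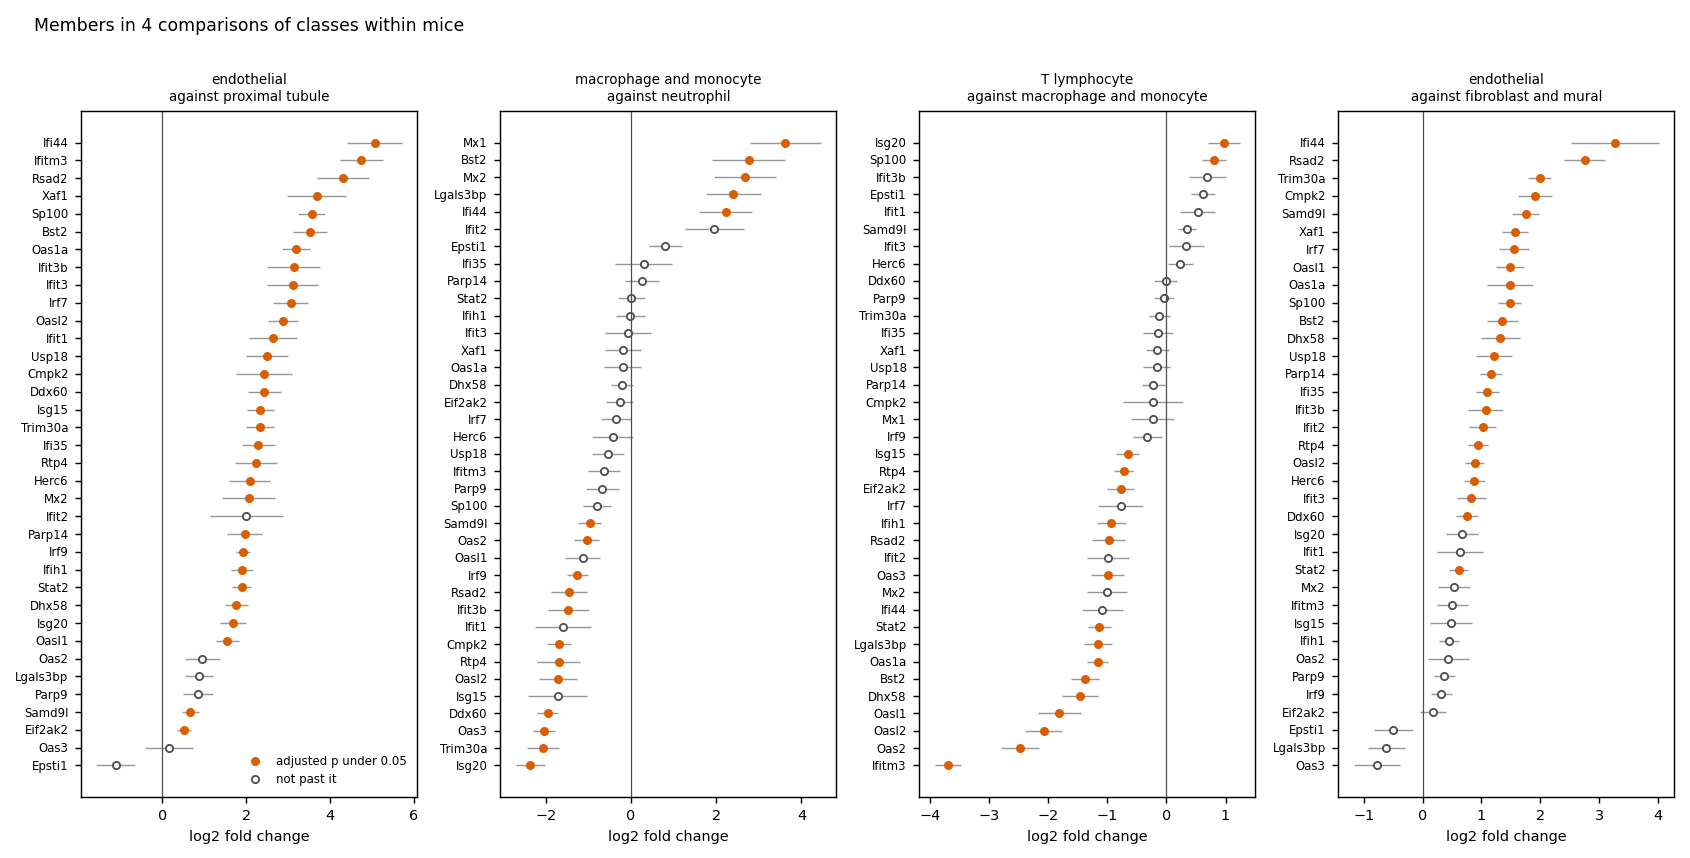
Log2 fold change of each member in 4 of the comparisons between classes, as points with bars of 1 standard error, from edgeR with the mouse as a block. Filled points had an adjusted p under 0.05; they lie right of 0 in both endothelial panels and on both sides of it in the leukocyte panels.

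Each class was also compared with the mean of the other classes, over 15902 genes. Neutrophils had 30 members higher and 4 lower (34.9% and 32.0% of all genes). Values are again log2 fold changes ± SE. The leading members of neutrophils were Oas3 (4.86 ± 0.23), Oas2 (3.99 ± 0.18) and Trim30a (3.88 ± 0.27), and Ifi44, Mx2, Lgals3bp and Bst2 were lower. With library totals in place of TMM scaling neutrophils had 21 members higher and 6 lower. The median log2 fold change of all genes then moved from -0.08 to -1.04 and that of the members from 1.94 to 0.91. Macrophages had 27 higher and 0 lower (24.6% and 18.1%), led by Mx1 (4.52 ± 0.47) and Epsti1 (3.37 ± 0.24). They entered this fit from mice 1, 2 and 4 only. Without the mouse as a block 3 members were higher in macrophages, and the members' median log2 fold change went from 1.26 to -0.27. Endothelium had 24 higher, led by Ifi44 (4.18 ± 0.31), and 4 lower, which were Epsti1, Mx1, Oas3 and Oas2 (23.0% and 18.1%). Monocytes had 19 and 0 (23.8% and 21.4%), and T lymphocytes 14 and 2 (25.8% and 23.9%), with Mx1 (3.91 ± 0.46) first. Part of the epithelium formed the other end. The proximal tubule had 0 higher and 33 lower (16.1% of all genes lower), the distal convoluted tubule 0 and 31 (14.6%), the thick ascending limb 0 and 26 (12.9%) and podocytes 0 and 11 (12.8%). Collecting duct and connecting tubule cells had 10 members higher and 2 lower (20.8% and 12.5%), led by Ifi44 (2.74 ± 0.37). Lgals3bp was the leading member of parietal epithelium (2.60 ± 0.27), Rsad2 of intercalated cells (1.95 ± 0.38) and Ifitm3 of fibroblasts and mural cells (1.87 ± 0.27). Parietal epithelium had 4 higher and 10 lower (21.5% and 12.0%), intercalated cells 2 and 5 (19.7% and 13.8%) and fibroblasts and mural cells 2 and 6 (18.7% and 14.2%). Of the proximal tubule, distal convoluted tubule, thick ascending limb and podocytes, with 0 members higher, 24.6%, 18.8%, 22.5% and 11.8% of all genes were higher. These comparisons share their samples with each other and with the pairwise ones. Several counts moved with the mouse left out. The thick ascending limb had 10, 12 and 16 members lower without mice 1, 2 and 4, and macrophages 16 higher without mouse 4. T lymphocytes had 9 higher without mouse 2 and 23 without mouse 3, and collecting duct cells 5 without mouse 1. Podocytes had 6 lower without mouse 1 or mouse 2, and parietal epithelium 6 lower without mouse 1. Endothelium had 1 lower without mouse 2 or mouse 3, and neutrophils 2 and 1 lower without mice 1 and 2. Without the mouse as a block the proximal tubule had 2 members lower and the distal convoluted tubule 3.

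Agreement among the members is described over 55 sums of a class in a mouse, as the correlation of a member with the mean of the others after centring within each mouse. The points share libraries and depth. It was highest for Irf7 (0.91), Xaf1 (0.88) and Parp14 (0.88) and lowest for Samd9l (0.28), Lgals3bp (0.31) and Eif2ak2 (0.32), the kinase PKR. Of 12167 other genes, the most like the members' mean on the same scale were Uba7 (0.89), the enzyme that activates ISG15, H2-D1 (0.88), Dtx3l (0.88), the partner of Parp9, B2m (0.86) and Tap1 (0.85). Apobec3, Tbpl1, H2-K1, H2-T23 and Psmb9 completed the first 10.

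The rest of the pathway was read from a list of 54 ligands, receptors, signalling genes, sensors and restraints, of which 45 had a UMI. Ifnb1, the beta interferon, had 48, 9, 745 and 302 UMIs in mice 1 to 4, or 0.777, 0.146, 7.75 and 8.31 CPM of all UMIs. In macrophages of mice 1, 2 and 4 it was 6.11, 1.03 and 42.1 CPM, and in mouse 3 monocytes 12.6 CPM (95% counting interval 11.1 to 14.3). The interferon alpha genes and Ifnab had 0 to 4 UMIs each in any mouse. Interferon gamma, Ifng, had 232, 242, 1637 and 3021 UMIs and in T lymphocytes 138, 113, 347 and 374 CPM, with mouse 4 highest by both measures. Ifnar1 was 106, 110.1, 70.9 and 39.1 CPM of all UMIs and Ifnar2 77.7, 86.4, 92.8 and 125 CPM, and mouse 3 was not the highest mouse for either. Irf1 was 117, 134, 475 and 62.4 CPM and Socs1, which restrains the receptor's kinases, 11.1, 11.4, 198 and 32.5 CPM, each highest in mouse 3. Samhd1, which degrades nucleotides, and Zbp1, a sensor of Z-form nucleic acid, were likewise highest there at 927 and 272 CPM. These are levels over all kept cells of a kidney, and in them more cells of a type and more RNA per cell cannot be told apart. In endothelium against the proximal tubule 22 of 30 pathway genes were higher and 4 lower (26.6% and 24.8% of all genes). Without the mouse as a block 5 were higher and 1 lower. In endothelium against fibroblasts and mural cells 14 were higher and 2 lower of 30 (14.8% and 13.8% of all genes), but 6 were higher without mouse 1, 4 without mouse 2 and 1 without the block. The counts higher and lower were 7 and 12 of 33 (23.2% and 20.3% of all genes) in macrophages and monocytes against neutrophils and 5 and 15 of 33 (14.9% and 19.7% of all genes) in T lymphocytes against macrophages and monocytes. They were 3 and 4 of 28 (19.0% and 18.9% of all genes) in the thick ascending limb against the proximal tubule and 5 and 3 of 30 (10.9% and 12.1% of all genes) in monocytes against macrophages. Leaving out 1 mouse moved several of these small counts. With mouse 1 left out macrophages and monocytes against neutrophils gave 2 higher and 6 lower, with mouse 2 left out 3 higher and 6 lower, and with mouse 4 left out 4 higher and 14 lower. T lymphocytes against macrophages and monocytes had 2 higher with mouse 1 or mouse 2 left out. Monocytes against macrophages gave 2 higher and 1 lower with either of these left out, and 8 higher and 3 lower with mouse 4 left out. In the thick ascending limb against the proximal tubule 2 were higher with mouse 1 left out, and the count lower was 1, 1, 2 and 1 with mice 1 to 4 left out in turn. In endothelium against the proximal tubule the count lower was 1, 2 and 2 with mice 2, 3 and 4 left out.

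Some cells were left without a class, 813, 343, 1647 and 396 of them in mice 1 to 4. Cluster 8, of 1485 mouse 3 cells led by Il27, Dnase1l3, Cd40 and Aoah, had a member sum of 17525 CPM. Its Oasl1 was 1418 CPM (95% counting interval 1394 to 1442), and in the monocytes of cluster 10 of the same mouse 366 CPM (95% counting interval 357 to 374). Ifnb1 was 37.6 CPM (95% counting interval 33.9 to 41.7) in cluster 8 against 12.6 CPM (95% counting interval 11.1 to 14.3) in cluster 10. The intervals cover counting error only, and with 1 mouse there is no test. Mx1 in the clusters stood at 705 CPM against 438 CPM, and Isg15 at 1725 and 1555 CPM. Cluster 17, drawn from mice 1 and 2, was left unnamed because it passed 9 macrophage and 8 neutrophil markers. Its mean doublet score was 0.091, and whether it holds doublets was not tested. Its member sums were 4136 and 4709 CPM.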

How the data were processed

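The deposited files hold UMI counts per gene and cell for 4 kidneys, made by the authors with Cell Ranger 9.0.1 per the file headers, and are not normalized. The submitters' processing notes name Seurat 4.1.1 with no role. For the genome build, nothing is given in the sources used here. The members, the pathway list and the comparisons were chosen with earlier results of these data known, and the numbers in the naming rule were set after clusters were seen.

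Cells with at least 500 UMIs, 300 genes and under 50% mitochondrial UMIs were kept (scanpy 1.11.5). They were clustered (Leiden, resolution 1, leidenalg 0.10.2) without 700 genes taken out by name: the members, their pathway, other interferon-induced and antigen-presentation families and mitochondrial and ribosomal-protein genes. A cluster was named from markers alone, with 3 or more of a type's markers at 2-fold over the other cells in at least 20% of its cells, and mixed, ambiguous and urothelial clusters were left unnamed, the urothelial ones by a choice made after seeing the data. Scrublet marked 0.0141% to 0.0248% of barcodes in mice 1, 3 and 4 and 1.45% in mouse 2, so it did not work in 3 libraries, and doublets may remain.

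Counts were summed per class and mouse where a mouse had at least 20 cells of it. Library sizes were 36831995 to 105436725 UMIs per mouse. Classes were compared with edgeR 4.0.16 (quasi-likelihood test, TMM and filterByExpr). The animal was a block in the fit, since both classes came from the same animals. P-values were Benjamini-Hochberg adjusted over all genes tested with a threshold of 0.05. The fit was tested on simulated counts. CPM is per 1000000 UMIs of the class sum. Some levels in 1 mouse carry exact 95% intervals, and so do the shares of cells where they are drawn. These intervals cover counting error only, and a count of 0 allows up to 3 UMIs. Genes named are the members, the pathway genes and the genes most like the members by correlation. Alternatives were DESeq2 1.42.0, no filter, no block, thinning to 1000 UMIs, a 20% mitochondrial limit, resolution 0.5, fewer doublets, each mouse left out and, added after seeing the data, library totals without TMM factors. Promoters are from the RefSeq table of GRCm38.p6.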

Additional observations from a re-analysis of the deposited data

Results flagged for a closer look

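Mouse 3 lay far above the other 3 mice, with a gap that filled nearly the whole range of the group, for the summed level of the members in 8 classes. These were 15706 CPM in collecting duct and connecting tubule, 6259 CPM in distal convoluted tubule, 12493 CPM in intercalated cells, 16044 CPM in monocytes, 14070.3 CPM in parietal epithelium, 13832 CPM in podocytes, 7377 CPM in proximal tubule and 9328 CPM in thick ascending limb. The same held for the share of cells with 3 or more members in 5 classes, which were 85.3% in distal convoluted tubule, 100% in parietal epithelium, 96.4% in podocytes, 81.3% in proximal tubule and 92.3% in thick ascending limb. Of 444 values of single members with 4 mice, 246 met the same mark, 242 of them through a high value in mouse 3. Chance flags about 1 in 20 groups of this size when values are normally spread and groups independent. The members and classes here come from the same 4 libraries, so that rate is no measure for the 246. In mouse 3 endothelium, neutrophils, monocytes and part of the proximal tubule came from clusters that few cells of the other mice joined. The thick ascending limb came from clusters 11 and 15 in all 4 mice, and its sum in mouse 3 was 16.5-fold that of the next highest mouse. The part that the make-up of the clusters has in the excess was not tested for any class.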

How the results depend on the processing

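The animal was the block in every fit because the classes of a mouse come from the same animal. Without the mouse as a replicate block, the members called were 0 higher and 2 lower in macrophages and monocytes against neutrophils, 0 higher and 1 lower in monocytes against macrophages, 6 higher in endothelium against the proximal tubule, 0 higher in the thick ascending limb against the proximal tubule, 1 higher in endothelium against fibroblasts and mural cells and 0 higher and 1 lower in T lymphocytes against macrophages and monocytes. In the fits of each class against the mean of the others without that block, they were 2 higher and 1 lower in the collecting duct and connecting tubule, 3 lower in the distal convoluted tubule, 3 higher and 1 lower in endothelium, 1 higher and 2 lower in fibroblasts and mural cells, 0 higher and 0 lower in intercalated cells, 3 higher in macrophages, 7 higher in monocytes, 0 lower in neutrophils, 1 higher and 1 lower in the parietal epithelium, 2 lower in podocytes, 2 lower in the proximal tubule, 4 higher and 0 lower in T lymphocytes and 0 lower in the thick ascending limb. Pathway genes called without the block were 3 higher and 4 lower in macrophages and monocytes against neutrophils, 1 higher and 0 lower in monocytes against macrophages, 5 higher and 1 lower in endothelium against the proximal tubule, 1 higher and 0 lower in the thick ascending limb against the proximal tubule, 1 higher and 0 lower in endothelium against fibroblasts and mural cells and 1 higher in T lymphocytes against macrophages and monocytes. With every cell thinned to 1000 UMIs they were 3 higher and 1 lower in monocytes against macrophages, 1 lower in endothelium against the proximal tubule, 4 higher in the thick ascending limb against the proximal tubule and 13 higher in endothelium against fibroblasts and mural cells. For each class against the mean of the others, thinning gave 4 higher and 1 lower in the collecting duct and connecting tubule, 3 lower in intercalated cells, 2 lower in neutrophils, 5 lower in the parietal epithelium and 3 higher and 12 lower in the thick ascending limb. Thinning left pathway counts of 1 higher and 0 lower in monocytes against macrophages, 14 higher and 2 lower in endothelium against the proximal tubule, 1 higher and 1 lower in the thick ascending limb against the proximal tubule, 5 higher and 0 lower in endothelium against fibroblasts and mural cells and 3 higher in T lymphocytes against macrophages and monocytes. With library totals without TMM factors, an alternative chosen after seeing the data, they were 6 lower in macrophages and monocytes against neutrophils, 11 lower in monocytes against macrophages, 2 higher in the thick ascending limb against the proximal tubule and 6 higher and 9 lower in T lymphocytes against macrophages and monocytes. For each class against the mean of the others this gave 4 higher in intercalated cells, 1 higher and 7 lower in podocytes and 1 lower in T lymphocytes. Library totals gave pathway counts of 7 lower in macrophages and monocytes against neutrophils and 5 lower in endothelium against fibroblasts and mural cells. DESeq2 gave 1 higher in monocytes against macrophages, 1 lower in endothelium against the proximal tubule and 5 higher in the thick ascending limb against the proximal tubule. With DESeq2 the pathway counts were 11 higher in macrophages and monocytes against neutrophils, 3 higher in monocytes against macrophages, 2 lower in the thick ascending limb against the proximal tubule and 4 lower in endothelium against fibroblasts and mural cells. With no filter on low counts there were 1 lower in endothelium against the proximal tubule and 14 higher and 1 lower in the thick ascending limb against the proximal tubule. Without the filter the pathway counts were 2 lower in the thick ascending limb against the proximal tubule and 4 lower in endothelium against fibroblasts and mural cells. At Leiden resolution 0.5 there was 1 higher in T lymphocytes against macrophages and monocytes. At that resolution the pathway count was 1 lower in endothelium against fibroblasts and mural cells. With the highest doublet scores left out there was 1 lower in endothelium against the proximal tubule. Without those cells the pathway counts were 3 higher in monocytes against macrophages and 2 lower in the thick ascending limb against the proximal tubule. Cells under a mitochondrial share of 20% gave a pathway count of 4 lower in endothelium against fibroblasts and mural cells. The share of macrophages over mice with 2 or more members was 64.0%, against 38.2% with 3 or more. Leaving out each mouse in turn gave a range of 1 to 7 higher and 6 to 18 lower in macrophages and monocytes against neutrophils, 0 to 11 higher in monocytes against macrophages, 0 to 1 lower in endothelium against the proximal tubule, 3 to 6 higher and 0 to 1 lower in the thick ascending limb against the proximal tubule, 14 to 22 higher in endothelium against fibroblasts and mural cells and 0 to 4 higher and 8 to 18 lower in T lymphocytes against macrophages and monocytes. Against the mean of the other classes the range was 5 to 14 higher in the collecting duct and connecting tubule, 1 to 3 lower in endothelium, 1 to 2 higher and 3 to 6 lower in fibroblasts and mural cells, 2 to 6 higher and 2 to 7 lower in intercalated cells, 16 to 30 higher in macrophages, 1 to 5 lower in neutrophils, 6 to 11 lower in the parietal epithelium, 0 to 1 higher and 6 to 11 lower in podocytes, 9 to 23 higher and 1 to 3 lower in T lymphocytes and 10 to 31 lower in the thick ascending limb. For the pathway genes, whose alternatives were added after seeing the data, the range was 2 to 10 higher and 6 to 15 lower in macrophages and monocytes against neutrophils, 2 to 8 higher and 1 to 3 lower in monocytes against macrophages, 1 to 3 lower in endothelium against the proximal tubule, 1 to 2 lower in the thick ascending limb against the proximal tubule, 4 to 12 higher and 0 to 1 lower in endothelium against fibroblasts and mural cells and 2 to 7 higher in T lymphocytes against macrophages and monocytes. Without the block, edgeR at an unadjusted p under 0.05 gave 8 members in macrophages and monocytes against neutrophils, 5 in monocytes against macrophages, 0 in the thick ascending limb against the proximal tubule and 4 in T lymphocytes against macrophages and monocytes. In the comparisons of 2 classes no call reversed under the alternatives run. For each class against the mean of the others, reversals of single members were not checked. There the members' median log2 fold change in macrophages was 1.26 with the block and -0.27 without it. The cause of these changes was not tested, other than that leaving out a mouse means fewer samples. The mean over mice of the summed level rests on mouse 3, as given with and without it above. Depth limits low members most in mouse 4, whose monocyte sum is the thinnest (159419 UMIs).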
